A study of Mus musculus with 8 samples.

Results

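The genes described here encode the semaphorins of classes 3 to 7, their plexin receptors, the Slit ligands and Robo receptors, and the netrins with their Unc5 receptors. They were picked by gene symbol alone from the 56749 features counted in every library, with 1 symbol left out by the rule. This gave 43 genes: 19 semaphorins, 9 plexins, 3 Slit genes, 4 Robo genes, 4 netrin genes and 4 Unc5 genes. The data are counts of RNA from single nuclei of visceral white adipose tissue (the fat around the abdominal organs) of 8 mice, with 1 library per mouse and 2 mice in each of 4 groups. All mice kept 1 ordinary p21 allele (gene Cdkn1a, an inhibitor of cell division), and the other p21 allele carried an insert. The mCherry SD mice (rep144 and rep146) had the red fluorescent protein mCherry there and ate a standard diet. The mCherry HFD mice (rep128 and rep129) had the same insert and ate a high-fat diet. The Tert HFD mice (rep134 and rep136) and the TertCi HFD mice (rep138 and rep140) also ate a high-fat diet, and their insert was mCherry-Tert or mCherry-TertCi. Tert is the catalytic subunit of telomerase, and the labels do not spell out how TertCi differs from it. The insert sits at the p21 locus in each such allele, so the controls carry a modified p21 allele too. The age and sex of the mice and the length of the diets are not given in the sources used here. The sample labels say nuclei of whole tissue, while the series' design text speaks of the stromal vascular fraction and of p21+/- mice. The sample labels were followed.

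These genes were first described as guidance cues of growing nerve fibres. Semaphorins are secreted (class 3) or bound to the membrane (classes 4 to 7), and most signal through plexins, with neuropilins as partners for much of class 3. Slit proteins are secreted and bind Robo receptors, and netrins are secreted and bind Dcc, neogenin and the Unc5 receptors. Outside the nervous system the same proteins act on the growth of vessels, on the movement of immune cells and on stroma, and a fragment of Slit2 has been described as a secreted factor of thermogenic fat. White adipose tissue holds fat-storing adipocytes, fibroblast-like progenitors from which new adipocytes form, macrophages, vessels with their endothelium and pericytes, and a mesothelial surface layer.

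The 8 libraries held 23378488 (Tert HFD rep136) to 139749876 UMIs (mCherry HFD rep128). A UMI is a tag that marks 1 captured RNA molecule. In all, 30209 nuclei were kept, with a median of 1682 to 7134 UMIs per nucleus in a library. No pair of the 28 library pairs shared more than 16 nucleus barcodes (at most 0.348% of the smaller library). Clustering without the 43 genes gave 30 clusters. They were named by marker genes as adipocyte-like (5836 nuclei), progenitor-like (5071), macrophage-like (9014), endothelial-like (912) and mesothelial-like (1240), and 7601 nuclei in clusters with markers of 2 lineages were left out of these classes. Those left out were 54.4% and 47.5% of the nuclei in mCherry SD and 16.0% to 30.8% in the other 6 libraries, so each diet comparison within a class rests on a smaller share of the nuclei in mCherry SD. One of those mixed clusters, of 412 nuclei, was led by the pericyte genes Abcc9, Rgs5 and Notch3 and also carried progenitor markers, and it is called the pericyte cluster here. Each marker of the adipocyte, macrophage and mesothelial lists was highest in its own class, as were 10 of 11 progenitor markers and 9 of 10 endothelial markers. The inserted genes did not check the labels: mCherry had 25 UMIs in all barcodes together, and Tert was between 2.01 and 3.98 CPM (UMIs of the gene per 1000000 UMIs) with no higher level in the Tert HFD libraries. Cdkn1a was 1.57 and 3.19 CPM in mCherry SD, 14.3 and 17.1 in mCherry HFD, 8.48 and 4.28 in Tert HFD, and 6.69 and 4.41 in TertCi HFD.

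A level below is the summed UMI count of a gene in a class of nuclei in CPM, relative to all UMIs of that class and library. Levels were compared across classes for 1 gene at a time, never between genes, and as a description without a test, because classes were made from the same nuclei. Of the 43 genes, 38 had at least 500 UMIs over all barcodes and were ranked by class. Statements on the highest or leading class, here and below, cover the classes named above and the pericyte cluster. Dendritic-like (158) and epithelial-like nuclei (377) were not ranked. In this ranking 8 genes were highest in endothelial-like nuclei, 7 each in progenitor-like, macrophage-like and mesothelial-like nuclei and in the pericyte cluster, and 2 in adipocyte-like nuclei. The other 5 genes, among them Ntn5 with 20 UMIs and Robo3 with 31 UMIs in all barcodes, were too rare to rank.

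Among the ligands, progenitor-like nuclei led for both abundant Slit genes and for 2 secreted semaphorins. Slit3 was highest there in 8 of 8 libraries, at 4227 to 5419 CPM, against a mean of 1879 CPM in adipocyte-like and 148 CPM in macrophage-like nuclei. Slit2 was 562 CPM (358 to 866 over the 8 libraries) in progenitor-like nuclei, with 31.1 CPM in adipocyte-like nuclei. Sema3e, a ligand of plexin D1 that repels growing vessels, was 255 CPM ± 63.6 (SD, n = 8) in progenitor-like nuclei and at most 19.5 CPM on average in any other class. Mesothelial-like nuclei led for Sema5a, a membrane-bound semaphorin with thrombospondin repeats, at 1085 CPM ± 195 (SD, n = 8). They also led in 8 of 8 libraries for Sema3a, a secreted repellent, at 58.7 to 481 CPM, where the lowest value was Tert HFD rep136, a library with 40 mesothelial-like nuclei.

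Endothelial-like nuclei led in 7 of 7 libraries with enough nuclei for Sema6a (619 CPM on average), Sema3g (69.7 CPM) and Sema7a (33.8 CPM). Sema3g is a secreted semaphorin known from arterial endothelium, and Sema7a is anchored to the membrane by a lipid. Of the ranked classes, macrophage-like nuclei led for Sema4a in 8 of 8 libraries, at 29.9 to 92.2 CPM, and for Sema4d in 6 of 8, at 14.6 to 105 CPM. Both are membrane-bound semaphorins with known roles on immune cells. The unranked dendritic-like nuclei held more UMIs of both genes per nucleus in each library with at least 20 such nuclei. In mCherry HFD rep128 they numbered 70 and held 57 UMIs of Sema4a and 104 of Sema4d. The 3821 macrophage-like nuclei there held 842 and 2880. Sema5b was highest in the pericyte cluster in 7 of 7 libraries (73.6 CPM ± 30.1, SD), and Ntn4, a netrin of basement membranes, in 4 of 7 (210 CPM ± 130, SD). For Ntn4 the neighbouring classes, progenitor-like (164 CPM) and mesothelial-like nuclei (125 CPM), lay within that spread. Slit1 was highest in macrophage-like nuclei, at 13.4 to 38.9 CPM.

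The receptors had a different order of classes. Plxna4, a receptor for class 3 and class 6 semaphorins, was 1593 CPM ± 326 (SD, n = 8) in mesothelial-like nuclei, 638 CPM ± 159 (n = 7) in endothelial-like nuclei and 428 CPM ± 118 (n = 8) in macrophage-like nuclei. Mesothelial-like nuclei held the highest Plxna4 value in each library. Plxna2 was 302 CPM in endothelial-like and 276 CPM ± 76.8 (SD, n = 8) in adipocyte-like nuclei, which did not differ beyond their spread, and at most 106 CPM elsewhere. Plxnc1, the receptor of Sema7a, was highest in macrophage-like nuclei in 8 of 8 libraries (153 CPM ± 25.8, SD). Plxnd1 was highest in endothelial-like nuclei in 6 of 7 libraries (126 CPM), with macrophage-like nuclei next (94.8 CPM). Plxnb1 was 26.5 CPM in mesothelial-like nuclei and 24.4 CPM in the pericyte cluster, and at most 0.931 CPM in the other 4 classes.

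Robo1 was 568 CPM ± 116 (SD, n = 8) in progenitor-like nuclei and 437 CPM ± 82.6 (n = 7) in the pericyte cluster, and no more than 32.3 CPM in the remaining classes. In the pericyte cluster the 11 progenitor markers summed to 2020 to 4080 CPM and the 10 mural (vessel wall) markers to 1688 to 4593 CPM. The part of progenitor RNA in the levels of that cluster was not tested. Robo4, the endothelial member of its family, was 57.5 CPM ± 16.3 (SD, n = 7) in endothelial-like nuclei and at most 8.02 CPM elsewhere. Robo2 was highest in the pericyte cluster on average, but its 37.9 CPM came from values between 0 and 159 CPM. Among the Unc5 receptors, Unc5a led in adipocyte-like nuclei (20.6 CPM, in 7 of 8 libraries) and Unc5b and Unc5c in the pericyte cluster (24.1 and 42.2 CPM). The Unc5c mean there came from values between 0 and 139.6 CPM, the highest in mCherry SD rep146 and the next, 69.7 CPM, in TertCi HFD rep140.

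**Figure D1:**
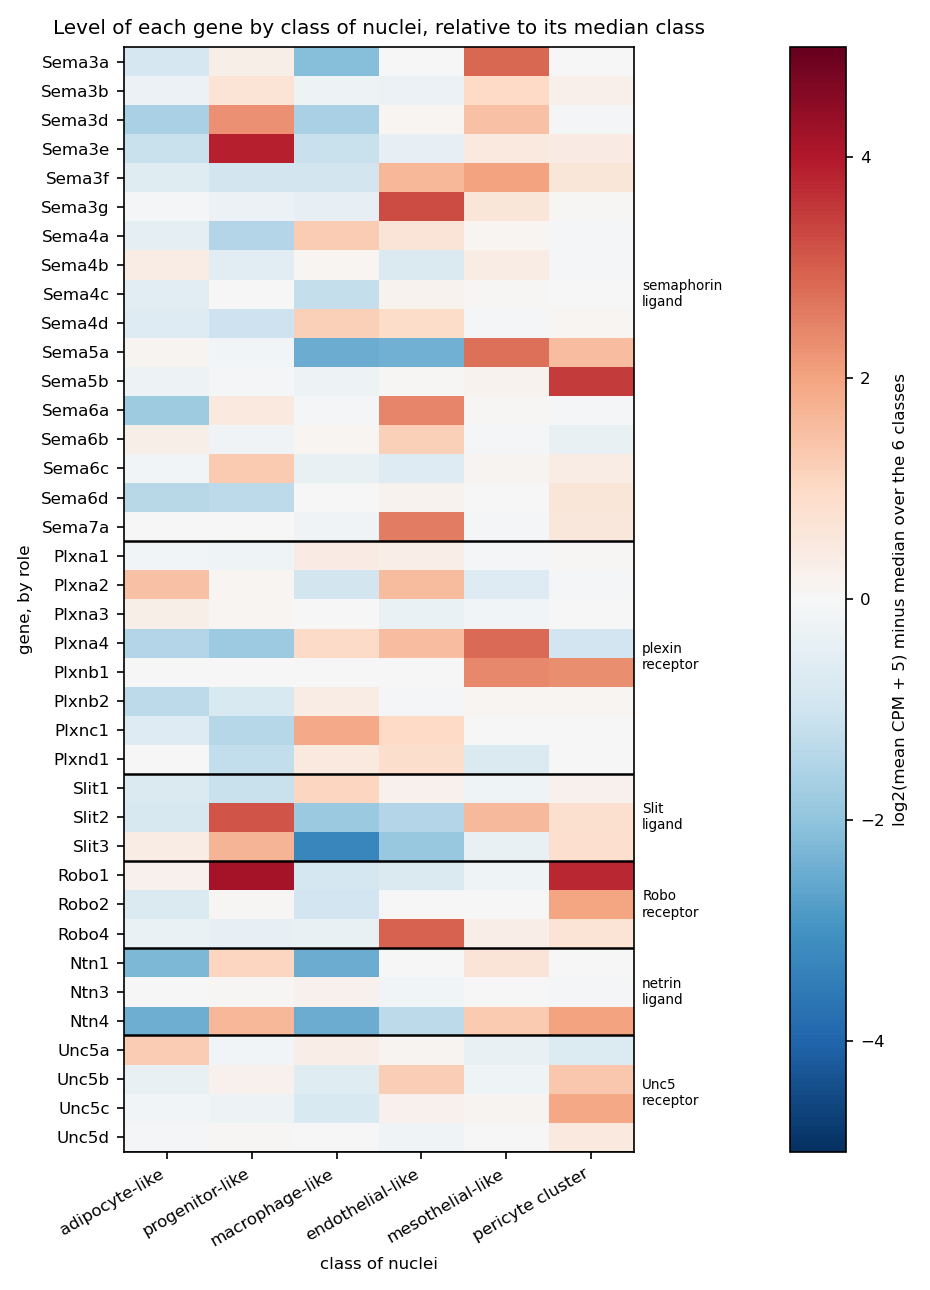
Each row is 1 of the 38 genes with at least 500 UMIs, grouped by role, and each column is a class of nuclei. Colour is log2(mean CPM over libraries + 5) minus the gene's median over the 6 classes, so that red marks the classes where that gene is high, such as Robo1 in progenitor-like nuclei and the pericyte cluster.

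Known ligand and receptor pairs were spread over the classes in several ways. Slit2, Slit3 and Robo1 were all highest in progenitor-like nuclei, whereas Robo4 was endothelial. For Sema3e and its receptor Plxnd1 the ligand was highest in progenitor-like nuclei and the receptor in endothelial-like nuclei, where Sema3e was 8.28 CPM. Sema3a and Plxna4 were both highest in mesothelial-like nuclei. Sema6a and Plxna2 were both highest in endothelial-like nuclei, and Sema3g shared that class with Plxna2. Sema7a was endothelial and Plxnc1 was macrophage-led. Sema4d and Plxnb2 were highest in macrophage-like nuclei (53.7 and 30.6 CPM), whereas Plxnb1 was at 0.931 CPM there. For Sema4a and Plxnd1 the classes were macrophage-like and endothelial-like. For Sema6d and Plxna1 they were the pericyte cluster (184 CPM) and macrophage-like nuclei (34.9 CPM). Plxna3, a receptor listed for Sema5a, was at most 5.01 CPM in any class. Ntn1 was highest in progenitor-like nuclei (220 CPM), and Unc5b, which can bind Ntn1 and Ntn4, was 8.12 CPM there.

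The groups were compared within each class by edgeR's quasi-likelihood test on summed counts, with Benjamini-Hochberg adjustment over all genes tested, and a gene was called at an adjusted p under 0.05. The diet comparison sets mCherry HFD against mCherry SD. The Tert and TertCi comparisons set Tert HFD and TertCi HFD against mCherry HFD. These 3 comparisons share the mCherry HFD mice, so an odd value in those mice moves all of them, in opposite directions for diet. With 2 mice a group, p-values measure the spread between these mice. Fold changes below are log2 values from that fit with their standard error (SE).

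Slit3 fell in adipocyte-like nuclei on the high-fat diet and was higher again in both insert groups, while no change was called in progenitor-like nuclei. In adipocyte-like nuclei it was 2414 and 2731 CPM in mCherry SD, 613 and 645 CPM in mCherry HFD, 2038 and 1697 CPM in Tert HFD, and 3208 and 1687 CPM in TertCi HFD. Both mCherry HFD mice lay below all 6 other mice. The diet change was -2.34 ± 0.27 (SE, adjusted p = 0.00100), the Tert change 1.84 ± 0.27 (adjusted p = 0.0181) and the TertCi change 2.37 ± 0.27 (adjusted p = 0.00254). The diet call held in all 8 fits that left out 1 mouse. The Tert call was lost without mCherry HFD rep128 or rep129 (1.86 to 1.93 over the 8 fits) and the TertCi call without rep128 (1.94 to 2.78 over the 8 fits). The mCherry HFD libraries had 195 and 64 adipocyte-like nuclei, the fewest of any library. In adipocyte-like nuclei the 5 Schwann cell markers summed to 194 and 177 CPM in mCherry HFD and to 253 to 384 CPM in the other mice. They were thus also lowest in mCherry HFD, and their part was not tested. No cluster was named Schwann-like. The same list summed to 367 to 621 CPM in progenitor-like nuclei, 8.38 to 43.9 CPM in macrophage-like nuclei and 87.0 to 297 CPM in free RNA. Whether it stands for Schwann cell RNA here was not tested.

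Adipocyte-like nuclei comprised 4 clusters whose shares differed between libraries. Cluster 9 held 58.4% and 67.8% of them in mCherry SD against 2.05% and 7.81% in mCherry HFD. In mCherry HFD, clusters 9 and 15 had 4 to 6 nuclei in a library and were not tested alone. Cluster 15 held 76.5% of the adipocyte-like nuclei of Tert HFD rep136, against 0.609% to 17.2% in the other libraries. In cluster 8, the only one with at least 20 nuclei in every library, Slit3 was 1918 and 2058 CPM in mCherry SD, 615 and 487 CPM in mCherry HFD, 1619 and 1245 CPM in Tert HFD, and 2620 and 1354 CPM in TertCi HFD. Tested in cluster 8 alone, which was added after seeing the data, the 3 changes were -2.04 ± 0.26 (SE), 1.51 ± 0.26 and 2.12 ± 0.26, with adjusted p of 0.000239, 0.00649 and 0.000605 in edgeR's test. Of the 26 genes tested in cluster 8, 6 were called for diet, 3 for Tert and 3 for TertCi (18.2%, 5.45% and 13% of all genes tested there). Sema4d and Sema6a were called in all 3 comparisons besides Slit3, with Sema6a at -1.60, 2.04 and 1.51. Over all libraries Sema6a was 67.2 CPM in cluster 8 and at most 16.1 CPM in clusters 2, 9 and 15. The macrophage-led genes Sema4d (14.8 against at most 5.88 CPM), Sema4a (29.7 against 9.40) and Plxnc1 (46.9 against 12.5) were highest there too. So were Slit1 (6.97 against 0.951) and Plxnb2 (10.3 against 5.88), which were macrophage-led as well. Plxna1 and Ntn3, also macrophage-led, were higher in cluster 15 (25.9 against 23.5 CPM) and cluster 2 (0.951 against 0.845 CPM). Sema6a itself was highest in endothelial-like nuclei among the classes. The part of macrophage or endothelial RNA in the calls of cluster 8 was not tested. In cluster 2, Slit3 was 595 CPM in mCherry HFD rep128 and 1994 to 3406 CPM in the other libraries with enough nuclei.

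In progenitor-like nuclei Slit3 was 4611 and 4943 CPM in mCherry SD, 4861 and 4771 CPM in mCherry HFD, 5419 and 4227 CPM in Tert HFD, and 5224 and 4427 CPM in TertCi HFD. The groups overlapped, and the diet change was -0.19 ± 0.17 (SE, edgeR adjusted p = 0.492), or 0.02 without TMM scaling. The diet change differed between the classes: progenitor-like minus adipocyte-like, it was 2.19 ± 0.22 on the log2 scale (edgeR's interaction test with the mouse as a block, adjusted p = 3.51e-06).

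Free RNA, taken from barcodes with at most 100 UMIs, carried Slit3 at 2045 and 2070 CPM in mCherry SD, 828 and 613 CPM in mCherry HFD, 1704 and 1304 CPM in Tert HFD, and 2299 and 1414 CPM in TertCi HFD. Its order over the groups was that of adipocyte-like nuclei. Macrophage-like nuclei had Slit3 at 188 and 212, 27.9 and 73.3, 128.6 and 226.6, and 197.2 and 134.2 CPM in the same group order, below the free level in every library. In macrophage-like nuclei, as in free RNA, both mCherry HFD mice were lowest. The order of the mice was that of free RNA within mCherry SD and TertCi HFD, and the reverse within mCherry HFD and Tert HFD. The part of free RNA in any Slit3 difference was not tested.

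**Figure D2:**
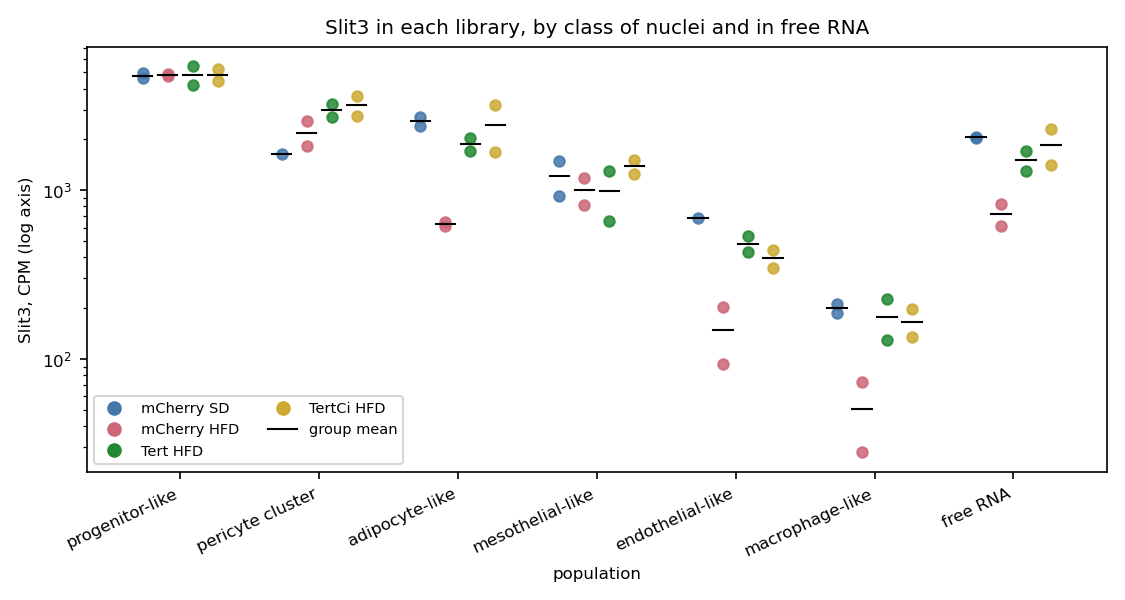
Each point is 1 library and each line a group mean, with Slit3 in CPM on a log axis for 6 classes and for free RNA. Points from fewer than 20 nuclei are left out. The 4 groups overlap in progenitor-like nuclei, and the mCherry HFD points are lowest in adipocyte-like, endothelial-like and macrophage-like nuclei and in free RNA.

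The promoter of Slit3 is shown because this gene was called in all 3 comparisons in adipocyte-like nuclei. It is the stretch of 250 bases before the start of the gene, from RefSeq on build GRCm38.p6 (the build of the table, not that of the counts), at chr11:35121206-35121455 on the plus strand, with GC boxes (GGGCGG, read on both strands) in capitals. The leftmost bases of the 6 boxes lie at -110, -91, -59, -34, -30 and -18, where -1 is the base before the start, and the pair at -34 and -30 overlap by 2 bases.
Slit3: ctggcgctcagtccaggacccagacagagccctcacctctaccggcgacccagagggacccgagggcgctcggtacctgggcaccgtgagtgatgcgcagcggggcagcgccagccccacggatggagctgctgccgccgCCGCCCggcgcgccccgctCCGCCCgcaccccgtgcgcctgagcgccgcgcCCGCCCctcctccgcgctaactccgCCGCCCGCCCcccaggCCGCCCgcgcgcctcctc
Of all 32851 windows of 250 bases in that table, 32.7% hold at least 1 GC box. The window held none of the other motifs searched, which were AGGTCA (a motif of nuclear receptors, in 14.0% of windows), GAGGAA (an ETS core, 23.3%) and TATAAA (12.4%). A match is a description of letters only.

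In adipocyte-like nuclei, 6 of the 30 genes tested were called for diet (2 higher, 4 lower). For comparison, 21% of all genes tested there were called (12.8% higher and 8.21% lower), so the share of these genes was close to the background. Their median change was -0.15, against 0.03 over all genes. Besides Slit3, Sema5a fell: it was 251 and 252 CPM in mCherry SD, 96.5 and 141 in mCherry HFD, 170 and 129.3 in Tert HFD, and 230 and 115 in TertCi HFD. Its diet change was -1.45 ± 0.30 (SE, edgeR adjusted p = 0.00977) and its TertCi change 1.02 ± 0.29 (adjusted p = 0.0444). The mCherry SD mice lay above all others, and the mCherry HFD mice overlapped with the insert groups. Free Sema5a RNA was 292 and 316 CPM in mCherry SD against 81.2 and 89.9 CPM in mCherry HFD. The 9 mesothelial markers, whose class had the highest Sema5a, summed in adipocyte-like nuclei to 64.2 and 47.6 CPM in mCherry SD. In the other mice they summed to 18.4 to 39.2 CPM, so the mCherry SD mice were highest there too. The part of either was not tested.

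Sema4d, a ligand of plexin B1 that is best known from lymphocytes and macrophages, was 9.55 and 4.96 CPM in mCherry SD, 25.9 and 27.3 in mCherry HFD, 7.29 and 6.87 in Tert HFD, and 5.21 and 6.39 in TertCi HFD. Both mCherry HFD mice were above all others. The diet change was 1.60 ± 0.41 (SE, edgeR adjusted p = 0.0217) and the TertCi change -1.78 ± 0.40 (adjusted p = 0.0188). In free RNA Sema4d was 77.5 and 69.0 CPM in mCherry HFD and 1.97 to 27.0 CPM in the other libraries, so both mCherry HFD mice were highest there too. The macrophage markers summed to 1179 and 1436 CPM in adipocyte-like nuclei of mCherry HFD and to 755 to 1482 CPM in those of the other mice, and their part was not tested.

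The other 3 diet calls rested on few molecules. Unc5c had 4 UMIs in mCherry HFD against 219 in mCherry SD, a ratio of 0.0516 (95% interval 0.0139 to 0.134, counting error only), and 190 of the 219 came from mCherry SD rep146. Sema3e had 3 UMIs against 48, a ratio of 0.176 (0.0352 to 0.547). Sema6b was 0.896 and 1.99 CPM in mCherry SD and 9.25 and 4.54 CPM in mCherry HFD, with 2 UMIs in rep129. The edgeR adjusted p was 0.0220 for Unc5c, 0.0424 for Sema3e and 0.0381 for Sema6b, and each of these calls was lost in at least 2 of the 8 fits without 1 mouse. The count of 6 became 3 without mCherry HFD rep128 or rep129 and 2 without mCherry SD rep146.

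For Tert, 2 of 30 genes were called in adipocyte-like nuclei (3.74% of all genes), and for TertCi 5 of 30 (14.7% of all genes). The medians were 0.27 and 0.21, against 0.00 and -0.01 over all genes. Slit2 was lower in both: its levels were 20.3 and 28.9 CPM in mCherry SD, 39.8 and 109 in mCherry HFD, 17.0 and 8.89 in Tert HFD, and 13.4 and 11.0 in TertCi HFD. The changes were -2.08 ± 0.44 (SE, edgeR adjusted p = 0.0392) and -2.01 ± 0.43 (adjusted p = 0.0160). Sema3a fell by 3.29 on the log2 scale for TertCi (SE 0.79, edgeR adjusted p = 0.0238), from 11.4 and 77.3 CPM in mCherry HFD to 2.15 and 3.53 CPM. A few nuclei held most of this signal: in mCherry HFD rep128, 35 of the 37 Sema3a UMIs came from 5 nuclei, in rep129 32 of 34, and for Slit2 in rep129 39 of 48. The 11 progenitor markers, whose class had the highest Slit2, summed in adipocyte-like nuclei to 228 and 234 CPM in mCherry SD, 287 and 504 in mCherry HFD, 260 and 297 in Tert HFD, and 152 and 147 in TertCi HFD. Their highest value was in rep129, as for Slit2 and Sema3a. Sema3a was highest in mesothelial-like nuclei, and the 9 mesothelial markers did not share that order. They summed in adipocyte-like nuclei to 64.2 and 47.6 CPM in mCherry SD, 18.5 and 31.8 in mCherry HFD, and 18.4 and 29.3 in TertCi HFD. The part of either list was not tested. Without 1 mouse the Tert count ran from 0 (mCherry HFD rep128 or rep129) to 5 (Tert HFD rep134), with 1 when Tert HFD rep136 and 4 when TertCi HFD rep140 was left out. The TertCi count was 1 without TertCi HFD rep138 or mCherry HFD rep129 and 2 without mCherry HFD rep128.

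The promoter of Sema5a is shown because this ligand fell with diet in both adipocyte-like and progenitor-like nuclei. The window is chr15:32244563-32244812 on the plus strand of GRCm38.p6 in the RefSeq table, with GC boxes and 1 nuclear receptor motif (AGGTCA, leftmost base at -139) in capitals. The GC boxes start at -99, -71, -66, -60 and -28, and the run from -71 holds 3 boxes of which the first 2 overlap by 1 base.
Sema5a: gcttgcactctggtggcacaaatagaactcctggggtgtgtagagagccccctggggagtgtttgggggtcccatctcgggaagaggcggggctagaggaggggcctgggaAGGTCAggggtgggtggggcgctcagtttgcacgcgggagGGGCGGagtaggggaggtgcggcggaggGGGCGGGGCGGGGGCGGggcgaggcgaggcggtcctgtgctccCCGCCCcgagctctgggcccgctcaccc

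In progenitor-like nuclei taken as a whole class, the netrin Ntn1 was called for diet, Tert and TertCi. It was 240 and 224 CPM in mCherry SD, 143 and 145 in mCherry HFD, 291 and 233 in Tert HFD, and 247 and 239 in TertCi HFD. Both mCherry HFD mice were below all others. The diet change was -0.89 ± 0.15 (SE, edgeR adjusted p = 0.00422), the Tert change 1.02 ± 0.15 (adjusted p = 0.00316) and the TertCi change 0.96 ± 0.15 (adjusted p = 0.00166), and each was called in all 8 fits without 1 mouse. In these nuclei the 5 Schwann cell markers summed to 367 and 381 CPM in mCherry HFD and to 434 to 621 CPM in the other mice. The 11 adipocyte markers summed to 86.8 and 133 CPM in mCherry HFD and to 192 to 571 CPM in the other mice. Both lists were thus also lowest in mCherry HFD, and their part was not tested. Whether the first list stands for Schwann cell RNA was not tested either. The makeup of the class differed too: cluster 13 held 55.1% and 54.5% of progenitor-like nuclei in mCherry HFD and at most 9.50% in any other library. Ntn1 was 81.3 CPM in cluster 13, 251 CPM in cluster 0 and 257 CPM in cluster 7. In cluster 0 alone the changes turned to 0.22, -0.16 and -0.25 (edgeR adjusted p = 0.563, 0.706 and 0.465). In cluster 7 alone, Ntn1 was higher for Tert (0.82 ± 0.18, SE, adjusted p = 0.0142) and TertCi (0.69 ± 0.18, adjusted p = 0.0212). Of 23 genes tested in cluster 0, 1 was called for diet, 2 for Tert and 4 for TertCi (5.83%, 3.99% and 7.90% of all genes tested there). Of 17 tested in cluster 7, 0 were called for diet by edgeR, with 2 at an unadjusted p under 0.05, 2 for Tert and 6 for TertCi (6.17%, 5.75% and 9.59% of all genes). These single-cluster tests were also added after seeing the data. Sema3d, a secreted semaphorin, was higher with diet in cluster 0 (1.54), and Sema3e was higher for TertCi in cluster 7 (0.73).

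The diet comparison called 3 of 27 genes in progenitor-like nuclei (12.0% of all genes), with a median of -0.18 against 0.03 over all genes. Sema5a was 196 and 168 CPM in mCherry SD and 103 and 104 CPM in mCherry HFD, a change of -1.02 ± 0.20 (SE, edgeR adjusted p = 0.00831), with 125 to 161 CPM in the 4 insert mice. The insert mice lay between the other groups. The 9 mesothelial markers, whose class had the highest Sema5a, summed in progenitor-like nuclei to 264 and 263 CPM in mCherry SD and to 163 and 225 CPM in mCherry HFD. Free Sema5a RNA was lower in mCherry HFD too, as given above, and the part of either was not tested. Plxnb2 rose from 5.52 and 5.06 CPM to 17.7 and 16.7 CPM (1.52 ± 0.41, SE, adjusted p = 0.0321), a call that DESeq2 did not make. The 11 macrophage markers, whose class had the highest Plxnb2, summed in progenitor-like nuclei to 188 and 154 CPM in mCherry SD and to 410 and 514 CPM in mCherry HFD, and their part was not tested. The count was 1 without mCherry HFD rep128 or mCherry SD rep144.

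The Tert comparison called Ntn1 alone in progenitor-like nuclei, 1 of 27 genes (10.5% of all genes), and the TertCi comparison 5 of 27 (18.3% of all genes). The medians were 0.08 and 0.11, against -0.02 and -0.05. For TertCi, Sema5a (0.73 ± 0.19, SE, edgeR adjusted p = 0.0209) and Slit2 (0.64 ± 0.18, adjusted p = 0.0307) were higher, next to Ntn1. Slit2 was 524 and 561 CPM in mCherry HFD and 866 and 601 CPM in TertCi HFD, and it was lower than in mCherry HFD in adipocyte-like nuclei of the same mice. Sema3a (-0.99 ± 0.27, SE, adjusted p = 0.0235) and Unc5b (-1.32 ± 0.40, adjusted p = 0.0385) were lower. Unc5b was 15.9 and 10.1 CPM in mCherry HFD and 4.92 and 4.58 CPM in TertCi HFD, and among clusters it was 25.7 CPM in cluster 13 and at most 6.09 CPM in the others. In cluster 0 alone Sema5a (-0.10) and Slit2 (-0.43) had the opposite sign for TertCi without a call, and Slit2 was called lower for Tert. In cluster 7 alone Slit2 (0.76 ± 0.19, SE, edgeR adjusted p = 0.0182) and Sema3a (-1.41 ± 0.42, adjusted p = 0.0423) were called for TertCi with the sign of the whole class. The Tert count was 3 without Tert HFD rep134 or rep136. The TertCi count was 1 without mCherry HFD rep128, rep129 or TertCi HFD rep138, and 3 without TertCi HFD rep140.

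The clusters of this class also differed in these genes over all libraries. Sema3e was 759 CPM in cluster 7, 55.3 CPM in cluster 0 and 23.0 CPM in cluster 13. Robo1 was 1204 CPM in cluster 7, 303 CPM in cluster 0 and 437 CPM in cluster 13. The leading genes of cluster 7 included Opcml, Fbn1 and Sema3e itself.

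Macrophage-like nuclei had more calls among these genes than the other classes had. The share called over all genes was also highest there for Tert and TertCi, and level with adipocyte-like nuclei for diet. For diet 9 of 26 genes were called, 3 higher and 6 lower (21% of all genes, with 10.5% higher and 10.5% lower), for Tert 9 of 26 (17.5%) and for TertCi 8 of 26 (24.2%). The medians were -0.30, 0.52 and 0.30, against 0.05, -0.01 and -0.03 over all genes. The diet count was 3 without mCherry SD rep146. The Tert count was 3 without mCherry HFD rep128 and 5 without mCherry HFD rep129 or Tert HFD rep134. The TertCi count was 3 without TertCi HFD rep138 and 5 without mCherry HFD rep128 or rep129. Sema6d, a membrane-bound semaphorin that signals through plexin A1 and shapes macrophage polarisation, was 151 and 174 CPM in mCherry SD, 48.8 and 50.1 in mCherry HFD, 148 and 68.7 in Tert HFD, and 187 and 150 in TertCi HFD. Both mCherry HFD mice were below all others. The changes were -1.93 ± 0.26 (SE, edgeR adjusted p = 0.000454) for diet, 1.34 ± 0.24 (adjusted p = 0.00400) for Tert and 1.98 ± 0.24 (adjusted p = 0.000361) for TertCi, and all 3 were called in all 8 fits without 1 mouse.

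Sema4a was 68.3 and 80.5 CPM in mCherry SD, 29.9 and 34.0 in mCherry HFD, 92.2 and 46.0 in Tert HFD, and 78.5 and 69.1 in TertCi HFD. Its diet change was -1.44 ± 0.27 (SE, edgeR adjusted p = 0.00322), with 1.33 ± 0.23 for Tert (adjusted p = 0.00340) and 1.43 ± 0.23 for TertCi (adjusted p = 0.00168). Sema6a was also lowest in mCherry HFD, at 149 and 87.8, 44.5 and 43.8, 166 and 67.3, and 213 and 85.8 CPM, with changes of -1.57 ± 0.44 (SE, edgeR adjusted p = 0.0270), 1.60 ± 0.39 (0.0168) and 1.99 ± 0.39 (0.00461). Sema4b fell with diet from 46.3 and 23.2 CPM to 7.35 and 9.41 CPM (-2.19 ± 0.39, SE, adjusted p = 0.00264) and was 17.2 and 13.3 CPM in Tert HFD (1.10 ± 0.34, adjusted p = 0.0433). In each of these 4 semaphorins both mCherry HFD mice were lowest. The 11 macrophage markers themselves summed to 8992 and 10613 CPM in mCherry SD, 4939 and 5033 in mCherry HFD, 9415 and 4814 in Tert HFD, and 8984 and 6615 in TertCi HFD. They were lowest in both mCherry HFD mice and Tert HFD rep136. Marker sums of other cells also differed between the groups in these nuclei. The 6 B cell markers summed to 1034 and 932 CPM in mCherry SD, 145 and 345 in mCherry HFD, 381 and 243 in Tert HFD, and 617 and 585 in TertCi HFD. The 6 dendritic cell markers summed to 149 and 121 CPM in mCherry SD, 38.0 and 45.6 in mCherry HFD, and 58.0 to 96.8 in the insert mice. The 8 T and NK cell markers summed to 139 and 98.8 CPM in mCherry SD, 31.9 and 49.3 in mCherry HFD, and 32.0 to 120.7 in the insert mice. The 11 adipocyte markers summed to 295 and 560, 140 and 202, and 297 to 424 CPM in the same groups. The part of these lists in the 4 semaphorin calls was not tested.

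Sema4d and the receptor Plxna2 moved the other way. Sema4d was 34.1 and 14.6 CPM in mCherry SD, 102 and 105 in mCherry HFD, 33.4 and 52.7 in Tert HFD, and 37.5 and 50.0 in TertCi HFD. Its changes were 2.05 ± 0.40 (SE, edgeR adjusted p = 0.00451), -1.13 ± 0.30 (0.0227) and -1.08 ± 0.30 (0.0214). Plxna2 was 14.6 and 35.4 CPM in mCherry SD, 97.5 and 87.0 in mCherry HFD, 41.7 and 53.3 in Tert HFD, and 35.7 and 33.4 in TertCi HFD. Its changes were 1.56 ± 0.31 (SE, edgeR adjusted p = 0.00516), -0.80 ± 0.24 (0.0409) and -1.22 ± 0.25 (0.00556). For both genes the mCherry HFD mice were above all others. The 11 progenitor markers summed in macrophage-like nuclei to 405 and 830 CPM in mCherry HFD and to 176 to 351 CPM in the other mice. The 5 cycling markers summed to 122 and 105 CPM in mCherry HFD and to 15.9 to 65.9 CPM in the other mice. Both lists were thus also highest in mCherry HFD, and their part in the 2 calls was not tested.

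Plexins made up most of the remaining macrophage calls. Plxna4 rose with diet (0.69 ± 0.19, SE, edgeR adjusted p = 0.0232), from 339 and 267 CPM to 638 and 476 CPM. Plxnc1, 126 and 118 CPM in mCherry HFD, was higher in Tert HFD (172 and 171 CPM, 0.68 ± 0.16, adjusted p = 0.0131) and TertCi HFD (162 and 193 CPM, 0.73 ± 0.16, adjusted p = 0.00686). Plxnd1 was 66.4 and 60.8 CPM in mCherry HFD and higher in Tert HFD (104 and 147 CPM, 1.16 ± 0.25, adjusted p = 0.0102) and TertCi HFD (83.6 and 114 CPM, 0.80 ± 0.26, adjusted p = 0.0405). Unc5a, at 3.33 to 17.1 CPM, was lower with diet (-1.70 ± 0.55, SE, adjusted p = 0.0486), a call lost in 6 of 8 fits without 1 mouse. Slit3 was called in all 3 comparisons (-2.24, 2.06 and 1.98), beside the free RNA described above.

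**Figure D3:**
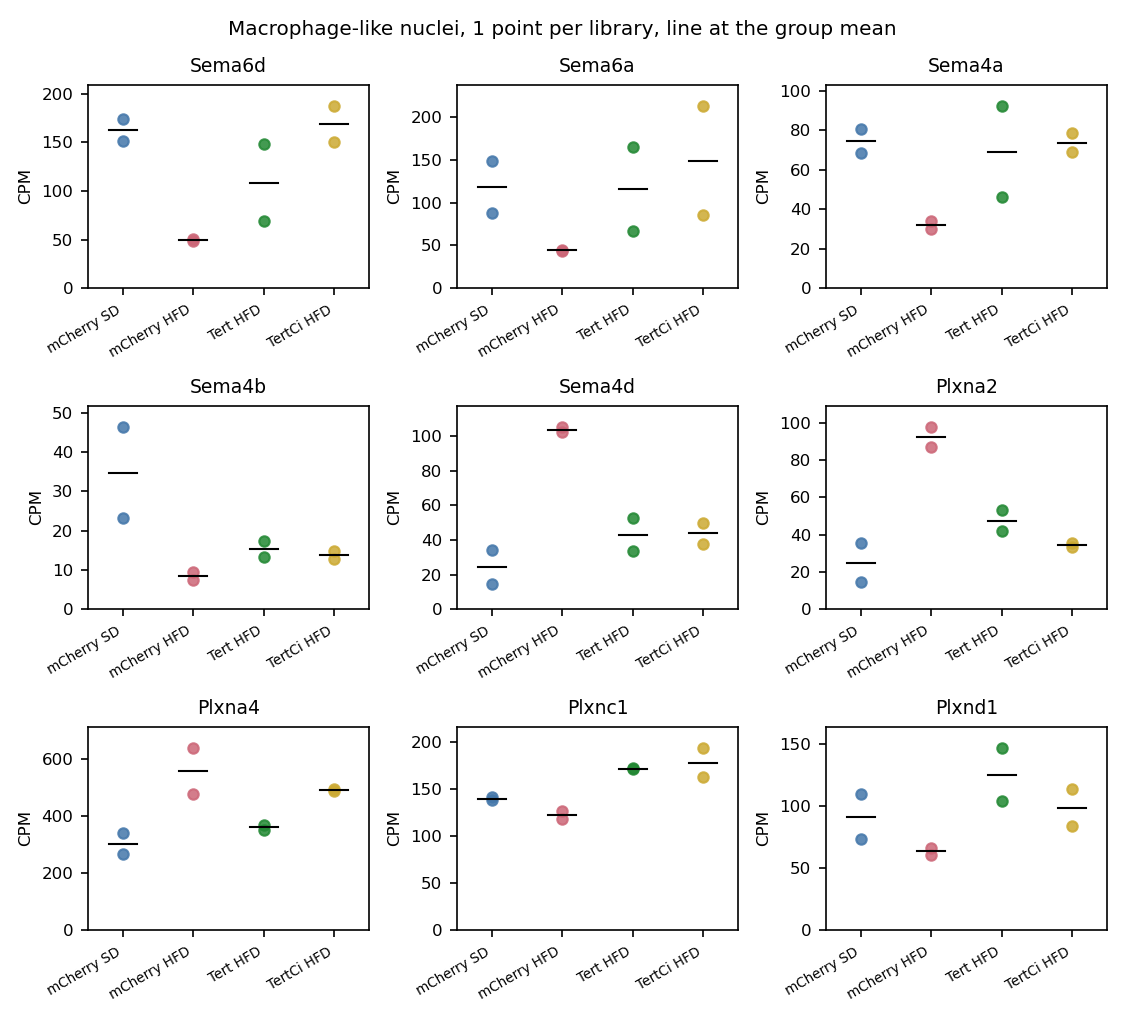
Each panel is 1 gene in macrophage-like nuclei, each point 1 library and each line a group mean, in CPM from 0. Sema6d, Sema6a, Sema4a and Sema4b are lowest in both mCherry HFD mice (48.8 and 50.1 CPM for Sema6d), and Sema4d and Plxna2 are highest there.

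The macrophage-like class was made of different clusters in different groups. Cluster 4, led by F13a1 and Cd163 (markers of resident macrophages), held 76.5% and 79.0% of it in mCherry SD, 0.314% and 0.602% in mCherry HFD, 55.6% and 35.1% in Tert HFD, and 56.2% and 48.6% in TertCi HFD. Clusters 1, 5 and 12 together made up most of the class in both mCherry HFD libraries and were at 0 nuclei in both mCherry SD libraries. Cluster 14 held 49.4% of the class in Tert HFD rep136 and 0.236% to 24.6% in the other libraries. Over all libraries Sema6d was 247 CPM in cluster 4 and 127 CPM in cluster 12, against 15.1 to 51.7 CPM in the other 4 clusters. Sema6a was 263 and 190 CPM in clusters 4 and 12 and 5.63 to 19.9 CPM in the others. Sema4d had the reverse order, with 123 CPM in cluster 1, 106 CPM in cluster 5, 91.5 CPM in cluster 14 and 11.4 CPM in cluster 4. Plxna2 was 130 CPM in cluster 1 and 21.3 CPM in cluster 4. How much of each change in the class is makeup and how much is level inside a cluster was not tested for most clusters, because they held too few nuclei in some groups.

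Cluster 17, led by Cd226, Skint3 and Ccr2, was the only macrophage-like cluster with at least 20 nuclei in every library. Tested alone, as an analysis added after seeing the data, it gave 0 calls for diet among the 10 genes tested, with 2 genes at an unadjusted p under 0.05 in edgeR's test (0.598% of all genes were called). Plxnc1 turned there: it was 218 and 115 CPM in mCherry SD, 431 and 369 in mCherry HFD, 131 and 146.03 in Tert HFD, and 130 and 112 in TertCi HFD. Its changes were -1.51 ± 0.27 for Tert (SE, edgeR adjusted p = 0.0116) and -1.63 ± 0.26 for TertCi (adjusted p = 0.00509), the only member calls in this cluster (2.02% and 3.36% of all genes). The mCherry HFD mice were above all others, the reverse of the whole class. Plxna2 (-1.91, 1.70 and 1.37) and Sema4a (1.08, -0.53 and -0.61) also had the opposite sign to the class there in all 3 comparisons, without a call.

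**Figure D4:**
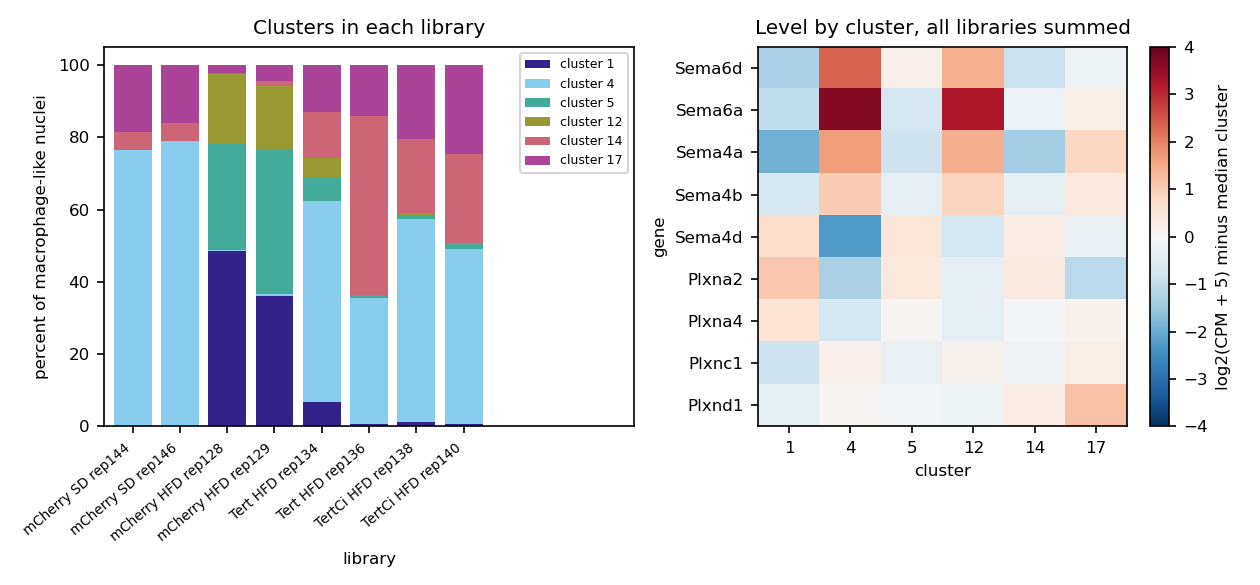
The left panel stacks the percent of macrophage-like nuclei in each of 6 clusters for every library. The right panel gives, for 9 genes, log2(CPM + 5) by cluster minus the gene's median cluster, where Sema6d and Sema6a are high in clusters 4 and 12 and Sema4d and Plxna2 in clusters 1, 5 and 14.

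The promoters of Sema6d and Plxna2 are shown because both were called in all 3 comparisons in this class, with opposite signs. The windows are those of the RefSeq table on GRCm38.p6, both on the plus strand, chr2:124089719-124089968 for the first of 2 starts of Sema6d and chr1:194619579-194619828 for Plxna2. GC boxes are in capitals, at -70 in Sema6d and at -96 and -83 in Plxna2, and the window at the second start of Sema6d (chr2:124653331-124653580) held none of the 4 motifs. In RefSeq 2 transcripts of Sema6d have the first start, which is printed here, and 8 have the second.
Sema6d: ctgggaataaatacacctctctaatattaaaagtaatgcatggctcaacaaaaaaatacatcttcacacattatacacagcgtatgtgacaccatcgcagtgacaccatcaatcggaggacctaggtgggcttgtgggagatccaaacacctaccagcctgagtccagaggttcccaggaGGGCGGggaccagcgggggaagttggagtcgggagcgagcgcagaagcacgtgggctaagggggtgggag
Plxna2: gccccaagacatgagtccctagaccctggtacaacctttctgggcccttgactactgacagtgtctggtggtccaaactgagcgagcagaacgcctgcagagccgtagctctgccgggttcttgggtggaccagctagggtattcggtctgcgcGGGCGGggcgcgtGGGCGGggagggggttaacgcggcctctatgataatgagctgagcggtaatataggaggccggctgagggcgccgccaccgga

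Endothelial-like nuclei were few, and mCherry SD rep144, with 12 of them, was left out. The diet comparison there thus rested on 1 mCherry SD mouse with 26 nuclei, so its spread was taken from the remaining groups. Diet called 1 of 26 genes (3.11% of all genes), Tert 4 of 26 (9.59%) and TertCi 4 of 26 (16.8%), with medians of -0.11, 0.34 and 0.52 against 0.08, -0.00 and 0.00. Sema3g was 36.1 and 35.5 CPM in mCherry HFD, 78.1 and 76.3 in Tert HFD and 118 and 94.2 in TertCi HFD, with 49.6 CPM in mCherry SD rep146. The changes were 1.13 ± 0.31 for Tert (SE, edgeR adjusted p = 0.0268) and 1.69 ± 0.29 for TertCi (adjusted p = 0.000940). All insert mice were above the other mice, but with nuclei kept at 1000 UMIs or more in every library the Tert change was -0.03. Plxnd1 was higher for Tert (82.2 and 76.5 against 180 and 185 CPM, 1.22 ± 0.24, SE, adjusted p = 0.00469), and Sema4c (2.32 ± 0.65, adjusted p = 0.0328) rested on 5.16 and 8.2 CPM in mCherry HFD.

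For TertCi, Sema5a (1.98 ± 0.57, SE, edgeR adjusted p = 0.0231) and Sema6d (0.89 ± 0.28, adjusted p = 0.0393) were also higher in endothelial-like nuclei, and the Sema6d change was -0.08 with finer clustering. Slit3 was called in all 3 comparisons (-2.40, 1.88 and 1.64), at 686 CPM in mCherry SD rep146, 93.4 and 202 in mCherry HFD, 429 and 534 in Tert HFD and 346 and 443 in TertCi HFD. The insert calls were few without mCherry HFD rep128, with 0 for Tert and 0 for TertCi, against 2 for Tert without Tert HFD rep134 and 1 and 7 for TertCi without TertCi HFD rep138 and rep140. For diet it was 2 when Tert HFD rep134, Tert HFD rep136 or TertCi HFD rep140 was left out. In the 7 libraries used, the 10 endothelial markers summed in these nuclei to 3180 CPM in mCherry SD rep146, 2725 and 3362 in mCherry HFD, 4389 and 4243 in Tert HFD, and 5194 and 4151 in TertCi HFD. They were higher in all 4 insert mice than in the other mice, as Sema3g was. The 11 macrophage markers summed to 4774 CPM in mCherry SD rep146 and to 2378 to 3583 CPM in the other 6 libraries. The 6 lymphatic endothelial markers summed to 712 and 569 CPM in mCherry HFD and to 33.0 to 374 CPM in the other libraries. The 11 adipocyte markers summed to 669 CPM in mCherry SD rep146, 177 and 216 in mCherry HFD, and 314 to 469 in the insert mice. They were lowest in both mCherry HFD mice, as Slit3 was in these nuclei and in free RNA. The part of any of these in the calls was not tested.

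**Figure D5:**
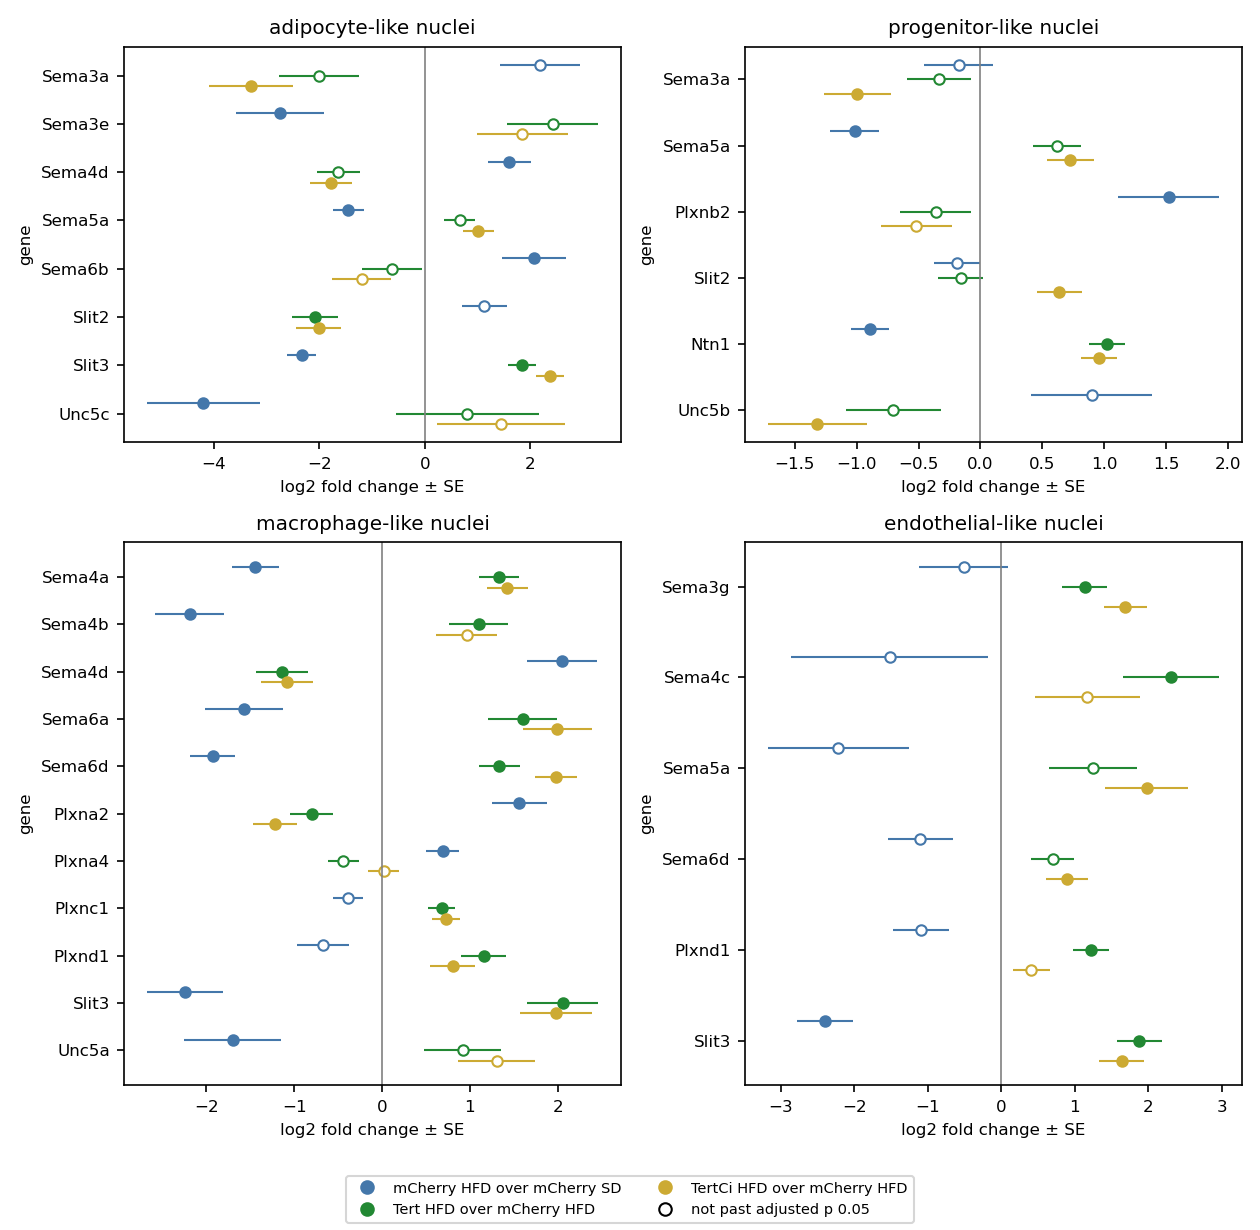
Points are log2 fold changes ± SE from edgeR for each gene called in at least 1 comparison, by class of nuclei. Filled points passed an adjusted p of 0.05 and open ones did not, and in macrophage-like nuclei the diet and insert changes lie on opposite sides of 0 except for Plxna4 and TertCi, with mCherry HFD mice shared by all 3.

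Summed over all called nuclei, which mixes the makeup of the tissue with levels inside classes, 15 of 39 genes were called for diet, 10 for Tert and 12 for TertCi. Over all genes the shares called were 40.7%, 21.8% and 35.5%. Sema4d was higher with diet (2.31 ± 0.31, SE, edgeR adjusted p = 0.00132) and Slit3 lower (-1.33 ± 0.19, adjusted p = 0.00170). Sema3g, at 1.75 to 2.82 CPM in the mCherry mice and 7.61 to 8.65 CPM in the 4 insert mice, rose in both insert comparisons (2.06 ± 0.27 and 2.12 ± 0.27, adjusted p = 0.00346 and 0.00134). Endothelial-like nuclei, where Sema3g was highest, numbered 12 and 26 in the mCherry SD libraries, 245 and 84 in mCherry HFD, 152 and 111 in Tert HFD and 227 and 55 in TertCi HFD. These are not shares, and libraries held 1978 to 7433 nuclei. They leave out mixed clusters 19 (465 nuclei) and 22 (411 nuclei), which also carried endothelial markers. Endothelial-like nuclei held 84 of 185 Sema3g UMIs in mCherry HFD rep128, 84 of 302 in Tert HFD rep134 and 110 of 266 in TertCi HFD rep138. The part of makeup in the Sema3g change was not tested. Unc5d was called for diet because of 1 library: it was 30.4 CPM in mCherry SD rep146 and 0.485 to 1.44 CPM in the other 7. Mixed clusters 23 (196 nuclei) and 28 (64 nuclei) came only from mCherry SD rep146, and their part in the Unc5d value was not tested. Without mCherry HFD rep128 the 3 counts were 7, 1 and 6, and without rep129 the Tert count was 2. The TertCi count was 6 without TertCi HFD rep138 and 5 without rep140.

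The diet change of a gene was also compared between classes. It differed for 6 of 33 genes between progenitor-like and adipocyte-like nuclei (4.31% of all genes), for 4 of 34 between macrophage-like and adipocyte-like nuclei (5.25%) and for 6 of 28 between macrophage-like and progenitor-like nuclei (5.32%). Sema6d and Sema4b had a lower diet change in macrophage-like nuclei than in either other class, and Plxna2 a higher one. The Plxna2 difference from progenitor-like nuclei was called in only 4 of 8 fits without 1 mouse, that from adipocyte-like nuclei in all 8.

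Tert HFD and TertCi HFD were also compared directly. No member was called in any class or in all nuclei by edgeR, and DESeq2 called 0 as well. At an unadjusted p under 0.05 edgeR gave 2 of 30 in adipocyte-like, 2 of 27 in progenitor-like, 3 of 26 in macrophage-like and 2 of 26 in endothelial-like nuclei, and 4 of 39 in all nuclei. Over all genes, 0.00% were called in the first 3 classes and in all nuclei and 0.0252% in endothelial-like nuclei. This does not show that the 2 inserts act alike: for Slit3 in adipocyte-like nuclei, for example, the difference of Tert from TertCi was -0.53 (log2, SE 0.26).

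Genes that work with these receptors were counted from 2 lists. Of 20 co-receptors and other receptors, 12 were tested in adipocyte-like nuclei, with 3 higher and 1 lower for diet, 0 called for Tert, and 3 higher and 3 lower for TertCi. Over all genes tested in that class, 21%, 3.74% and 14.7% were called. Nrp2, a co-receptor of class 3 semaphorins, was 36.7 and 44.7 CPM there in mCherry SD, 98.3 and 90.9 in mCherry HFD, 82.9 and 58.2 in Tert HFD and 30.6 and 41.9 in TertCi HFD. Its changes were 0.93 ± 0.23 for diet (SE, edgeR adjusted p = 0.0186) and -0.98 ± 0.22 for TertCi (adjusted p = 0.0199). The netrin receptor Neo1 moved the other way, lower with diet (-0.83 ± 0.19) and higher for TertCi (0.86 ± 0.19).

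In progenitor-like nuclei 1 of 12 was higher and 1 lower for diet, and 0 were called for either insert (12.0%, 10.5% and 18.3% of all genes). Nrp1, the sister gene of Nrp2, rose there with diet (0.59 ± 0.17, SE, edgeR adjusted p = 0.0388) and fell in macrophage-like nuclei (-0.67 ± 0.16, adjusted p = 0.0132). In macrophage-like nuclei 2 of 14 were higher and 2 lower for diet, 1 and 1 for Tert, and 0 and 1 for TertCi, where 21%, 17.5% and 24.2% of all genes were called. For Tert the share of the list was thus close to the background and for TertCi below it, which was not tested. Cd72, a receptor of Sema4d best known from B cells, was 9.76 and 4.88 CPM in mCherry SD and 41.5 and 34.2 CPM in mCherry HFD in that class, and 9.22 to 17.3 CPM in the insert mice. It rose with diet (2.33 ± 0.51) and fell in both insert comparisons (-1.35 ± 0.34 and -1.63 ± 0.36).

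Of 43 intracellular effectors, 38 were tested in macrophage-like nuclei, with 4 higher and 10 lower for diet, 9 higher and 1 lower for Tert, and 11 higher and 2 lower for TertCi. Over all genes 21%, 17.5% and 24.2% were called. The median changes of the list were -0.26, 0.23 and 0.30, against 0.05, -0.01 and -0.03 over all genes. The 2 largest changes among these for diet were Mical2, an actin-oxidising enzyme (2.58), and Dpysl3, a cytoskeletal mediator of the semaphorin response (-2.57). In adipocyte-like nuclei the counts were 2 higher and 4 lower, 2 and 1, and 9 and 2, and in progenitor-like nuclei 1 and 3, 4 and 0, and 6 and 4. The shares over all genes were 21%, 3.74% and 14.7% in the first of these classes and 12.0%, 10.5% and 18.3% in the second. The list medians were -0.27, 0.30 and 0.25 in adipocyte-like nuclei (0.03, 0.00 and -0.01 over all genes) and -0.04, 0.14 and 0.14 in progenitor-like nuclei (0.03, -0.02 and -0.05). Cables1, an adaptor that binds the Robo effector Abl, was lower with diet in progenitor-like (-1.09) and macrophage-like nuclei (-1.89). It was higher in both classes for Tert (1.04 and 1.68) and for TertCi (1.65 and 2.09).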

How the data were processed

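Nuclei of snap-frozen visceral fat were stained with DAPI, flow sorted and run on the 10x Next GEM 3' assay, per the labels' protocols, in batches of 2 samples whose membership is not given in the sources used here. The authors deposited raw UMI count matrices with 1 library per mouse. Cell Ranger 7.1.0 is named per the file headers, while the submitters' processing notes name Cell Ranger 5.0.1, bcl2fastq 2.20.0 and mm39. The annotation and the counting of introns are not given in the sources used here. With 2 mice a group, and nothing on litters, p-values measure the spread between these mice.

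Barcodes were kept above 500 UMIs and above 0.1 of the 99th percentile of the top 5000 barcodes, if they had 300 genes or more and no more than 5% of UMIs from mitochondria. Scrublet's automatic threshold marked at most 0.154% of barcodes and was taken not to have worked, so the highest doublet scores were removed at 0.8% per 1000 nuclei (1.59% to 6.35% of a library). Clusters came from scanpy 1.11.5 with 2000 variable genes (the 43 genes left out), 30 components, 15 neighbours and Leiden resolution 1.0, and were named from fixed marker lists. Counts were summed per library and class (at least 20 nuclei) and tested over all genes with edgeR 4.0.16 (quasi-likelihood, TMM scaling, Benjamini-Hochberg adjustment, threshold 0.05) in R 4.3.3, with all groups in 1 fit. Differences of the diet change between classes came from an edgeR fit with the mouse as a block. DESeq2 1.42.0, other filters, other clusterings and leaving out each mouse were the alternatives. On simulated diet data, the test recovered 67% of 4-fold and 11% of 2-fold changes for adipocytes (14668 genes), 70% and 18% for progenitors (12081 genes), 55% and 5% for macrophages (13971 genes) and 18% and 2% for endothelium (7939 genes). The simulation gave every gene the same spread, set in advance and not taken from the data, and changed 100 genes at each fold. Its shares hold for that setting and do not give the share of changes recovered in the real data.

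The members, gene lists and tests were chosen with earlier results of these data known. Named with values were every member called in a class, the ligands and receptors highest in a class relative to the others, and both sides of textbook pairs; cluster examples, pathway examples and Unc5d were chosen after their values were seen.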

Additional observations from a re-analysis of the deposited data

Results flagged for a closer look

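The diet change (mCherry HFD against mCherry SD) differed between 2 classes of nuclei for the genes below, by edgeR's interaction test with the mouse as a block and Benjamini-Hochberg adjustment over all genes. Values are differences of log2 fold changes. Progenitor-like minus adipocyte-like, 6 of 33 genes passed (4.31% of all genes): Slit3 at 2.19 (SE 0.22, adjusted p = 3.51e-06), Unc5b at 2.47 (SE 0.69, 0.0407), Sema6a at 1.24 (SE 0.34, 0.0350), Ntn1 at -1.27 (SE 0.36, 0.0415), Slit2 at -1.14 (SE 0.30, 0.0299) and Plxna4 at -0.95 (SE 0.27, 0.0460). Slit3 passed in all 8 fits without 1 mouse and the other 5 genes in 5 or 6 of 8. The count was 3 without mCherry HFD rep128, 1 without mCherry SD rep144 and 2 without mCherry SD rep146.

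Macrophage-like minus adipocyte-like, 4 of 34 genes passed (5.25% of all genes): Plxna2 at 1.35 (SE 0.32, edgeR adjusted p = 0.00951), Sema6d at -1.44 (SE 0.26, 0.000769), Sema4b at -1.74 (SE 0.41, 0.00811) and Robo1 at -2.06 (SE 0.49, 0.0105). Plxna2 and Sema6d passed in all 8 fits without 1 mouse and Sema4b and Robo1 in 6 of 8. The count was 2 without mCherry HFD rep128. Macrophage-like minus progenitor-like, 6 of 28 passed (5.32% of all genes): Ntn1 at 1.86 (SE 0.39, edgeR adjusted p = 0.0132), Plxna2 at 1.27 (SE 0.34, 0.0448), Plxnc1 at -1.96 (SE 0.53, 0.0474), Slit3 at -2.12 (SE 0.42, 0.00916), Sema6d at -2.26 (SE 0.29, 0.000751) and Sema4b at -2.70 (SE 0.50, 0.00582). Sema6d passed in all 8 fits without 1 mouse, Slit3, Ntn1 and Sema4b in 7, Plxnc1 in 5 and Plxna2 in 4 of 8. The count was 11 without mCherry HFD rep129 and 2 without mCherry SD rep146. The cluster makeup of the adipocyte-like, macrophage-like and progenitor-like classes differed between the diets, and its part in these differences was not tested. Some of the differences rested on few UMIs. In mCherry SD, macrophage-like nuclei had 5 and 5 UMIs of Ntn1 and 7 and 14 of Robo1. Progenitor-like nuclei of mCherry SD had 3 and 4 UMIs of Plxnc1, 4 and 10 of Sema4b, and 7 and 5 of Unc5b. Adipocyte-like nuclei of mCherry HFD had 8 and 2 UMIs of Unc5b.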

How the results depend on the processing

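No paired analysis was possible because the replicate numbers in the labels differ between all groups. Of the values of single genes under the alternatives, 1081 kept direction and side of the threshold, 323 kept direction without the call and 16 had the opposite sign. In cluster 0 only, Ntn1 in progenitor-like nuclei was 0.22, -0.16 and -0.25 (diet, Tert, TertCi), and for TertCi Sema5a was -0.10 and Slit2 -0.43. In cluster 17 only, macrophage-like Plxna2 was -1.91, 1.70 and 1.37, Sema4a 1.08, -0.53 and -0.61, Plxnc1 -1.51 and -1.63 (Tert, TertCi) and Sema6d -0.11 (TertCi). Endothelial-like Sema3g was -0.029 for Tert at 1000 UMIs and Sema6d -0.077 for TertCi at Leiden resolution 2.0. Single clusters and no TMM scaling were chosen after seeing the data, and the cause of each move was not tested.

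Counts of calls in adipocyte-like nuclei became 3 (diet), 1 (Tert) and 3 (TertCi) at resolution 2.0, and for Tert 4 with DESeq2, 1 with mixed clusters named by best class and 7 with no low-count filter. For TertCi there were 3 at 1000 UMIs and 3 in cluster 8. In progenitor-like nuclei the diet count was 1 in cluster 0, 0 in cluster 7 (edgeR, 2 at an unadjusted p under 0.05), 6 by best class and 5 without TMM. The Tert count was 2 at 1000 UMIs, 2 in cluster 0, 2 in cluster 7, 5 by best class and 4 with no filter, and the TertCi count 3 with DESeq2 and 9 by best class. In macrophage-like cluster 17 the counts were 0, 1 and 1. In endothelial-like nuclei diet gave 2 by best class and 2 with no filter. Tert gave 0 at 1000 UMIs, 1 with DESeq2, 1 at resolution 2.0 and 8 by best class, and TertCi 1, 2, 2 and 8. In all nuclei Tert gave 6 without TMM and 18 with no filter, and TertCi 19 with no filter. With no filter, Tert against TertCi gave 1 each in progenitor-like, endothelial-like and all nuclei, and the macrophage minus progenitor difference 10.

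Without 1 mouse, counts for diet, Tert and TertCi ran from 2 to 7, 0 to 5 and 1 to 6 in adipocyte-like, 1 to 4, 1 to 3 and 1 to 6 in progenitor-like, 3 to 11, 3 to 10 and 3 to 10 in macrophage-like, 1 to 2, 0 to 6 and 0 to 7 in endothelial-like, and 7 to 15, 1 to 12 and 5 to 12 in all nuclei. Differences between classes ran from 1 to 9 (progenitor minus adipocyte), 2 to 5 (macrophage minus adipocyte) and 2 to 11 (macrophage minus progenitor), and Tert against TertCi from 0 to 0. Leaving out a mouse leaves a group of 1, so the low-count filter admits more genes and the scaling shifts with them: a value from the full data can lie outside the range of the fits without 1 mouse. Without TMM scaling the median change of all genes in adipocyte-like nuclei was 0.33, -0.25 and -0.44, against 0.03, 0.00 and -0.01 with it. Of the called changes of members, 70 kept direction and call, 24 kept direction without the call and 0 turned direction. The uncalled Slit3 diet change in progenitor-like nuclei went from -0.19 to 0.02. Directions of the pathway genes and of the differences between classes were not compared without TMM.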
